A study of Mus musculus with 16 samples.

Results

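The SOCS family of cytokine feedback genes comprises 8 genes, Cish and Socs1 to Socs7, and its members were chosen as the rows that carry these gene symbols among the 51912 genes of the deposited table. All 8 were found, and they were read in all 16 libraries. The libraries were made from RNA of cMyc+ B cells of germinal centers (GCs), mostly of the light zone (LZ), in the spleen of cMyc gfp/gfp mice on a C57BL/6J background. In these mice cMyc is made from its own locus with GFP attached, so that positive cells can be sorted by green fluorescence. Males and females of 6 to 15 weeks were immunized intraperitoneally with sheep red blood cells (SRBC), and spleens were taken on day 7. All 4 groups share this genotype and treatment, and none is an unimmunized or cMyc-negative control. The cMyc+prePB group was sorted as B220+ CD38low CD95+ cMyc-GFP+ CD69hi, the cMyc+early group as CD23hi CD21/35hi, the cMyc+lateCD23int group as CD23int CD21/35int and the cMyc+lateCD23lo group as CD23lo CD21/35lo cells. Zone markers were not used to delineate cMyc+prePB, which the paper found to be mostly but not wholly LZ cells. The other groups were gated as LZ cells after cMyc+prePB and dark zone cells had been gated out. Each group had 4 libraries, numbered 1 to 4, and whether a library held pooled animals is not stated in the sources used here.

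SOCS proteins carry an SH2 domain, which binds phosphorylated tyrosines of cytokine receptors and JAK kinases, and a SOCS box, which recruits elongin B, elongin C and the scaffold Cullin-5 to form a ubiquitin ligase. Cytokines bound to their receptors switch on JAK kinases, which phosphorylate STAT transcription factors, and STATs in turn induce Cish, Socs1, Socs2 and Socs3, whose products damp the signal that made them. Socs4 to Socs7 are less tied to cytokine signals, and the products of some of them act on growth factor and insulin receptors. In germinal centers, T cells supply interleukin (IL)-4 and IL-21, both of which signal through JAKs and STATs.

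STAT dimers bind the palindrome TTCNNNGAA, and the sequences around its matches are shown because the cytokine-induced members are known as STAT targets. RefSeq promoters, from 250 bases before to 50 bases after a start site on GRCm38.p6, were at hand for 4 of the 8 members, namely Cish, Socs1, Socs3 and Socs4. The palindrome, which reads the same on both strands, stood in those of Cish and Socs3 and not in those of Socs1 and Socs4. It stood in 8.30% of all 32851 promoters, and the longer spacing TTCNNNNGAA stood in 6.95% and in none of the 4. Capitals mark the palindrome, and both stretches are on the strand of the gene.
Cish, chr9:107296655-107296682 (+): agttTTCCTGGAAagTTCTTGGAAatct
Socs3, chr11:117969503-117969530 (-): gaaaccagccTTCTTAGAAgggaggggg
The first palindrome of Cish begins at base 1 of the RefSeq start site and the second at base 12, within the 5′ UTR of the longest-reaching GENCODE transcript. That of Socs3 begins at base -154, upstream of the RefSeq start and within an intron of a longer GENCODE transcript. A match is a run of letters and does not show that a factor binds there.

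Recovered reads ranged from 19812080 to 25795815 per library, and 14650 to 15573 genes were detected. Values of 3 reads or fewer (2.48 to 3.23 normalized counts, depending on the library) were read as not measurable, a floor that covers counting error only. Of the B cell markers Ms4a1, Cd79a, Cd79b, Pax5 and Ptprc, the sum per library ranged from 103909 to 276620.3 normalized counts. Its median was 114398 in cMyc+prePB and 155369 to 171921 in the other groups, and its part in the differences of cMyc+prePB given below was not tested. The sum of 10 T cell markers ranged from 2163 to 6987, or from 6.29 to 246 when Lck, which made up most of it, was left out, and that of 8 myeloid markers from 203 to 1437. Markers of the T cell list differed in this. Cd3e was at 0 in 13 of 16 libraries and Cd4 in 13 of 16, whereas Cd3d was at 0 in 1 and Cd5 in 2. Cd3d reached 73.9 and Cd5 74.4 normalized counts. The sort markers followed the gates for Fcer2a (CD23) in cMyc+early against cMyc+lateCD23lo (limma log2 difference 2.63, adjusted p = 0.00434), while Cr2 (CD21/35) was not called there (0.63, adjusted p = 0.534). Cr2 fell in cMyc+prePB against the mean of the other 3 (log2 difference -1.71, adjusted p = 0.00668), against cMyc+early (-1.90, 0.0269) and against cMyc+lateCD23int (-1.97, 0.0174), of which 0 of 28, 11 of 29 and 8 of 29 alternatives lost the call, whereas Cd69 was not called in cMyc+prePB against the mean of the other 3 (log2 difference 0.23, adjusted p = 0.799). The study named Cr2 among genes reduced in cMyc+prePB from these libraries, so that its fall is not independent. The cMyc+prePB group was not gated on CD21/35. Nothing in the labels says that libraries came from separate mice, so that p-values measure the spread between these libraries. In bulk RNA, fewer expressing cells and less RNA per cell cannot be told apart.

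Per length, Socs4 led the family. Counts divided by kb of annotated exon were 89.7 ± 25.9 for Socs4, 34.2 ± 28.2 for Socs1, 29.5 ± 12.9 for Socs6, 17.1 ± 11 for Socs7, 11.4 ± 10.8 for Socs2, 9.05 ± 9.93 for Socs3, 3.49 ± 3.79 for Socs5 and 0.916 ± 2.15 for Cish (SD, n = 16). Socs4 exceeded Socs1 in 14 of 16 libraries. Each further gene exceeded the next in 8 to 12 of 16, so that neighbors in this order did not differ beyond their spread. With the length of the longest transcript in place of all exons, Socs6 stood before Socs1 and Socs2 before Socs7. The whole family summed to 128 to 285 per kb in a library, while the median tested gene stood at 70.1 to 82.8, and Socs4 and Socs6 together made up 34.7% to 78.6% of the family sum.

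**Figure D1:**
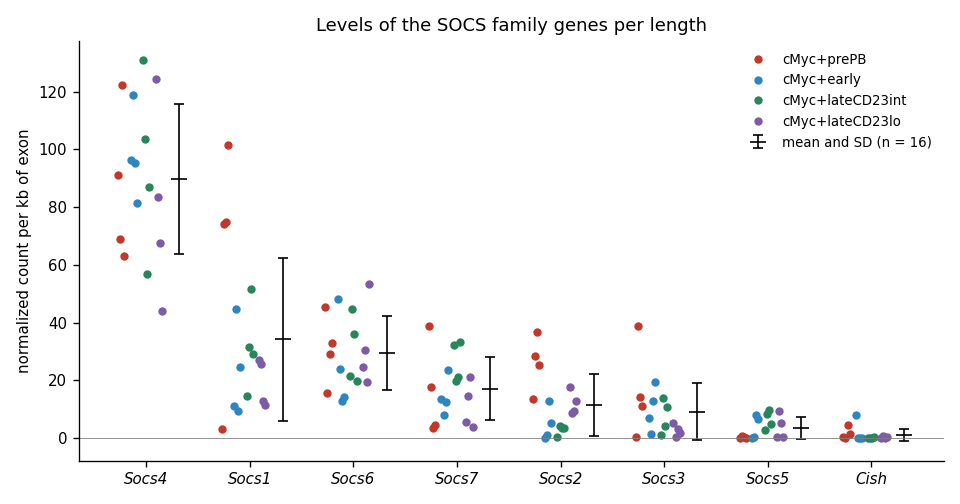
Normalized counts per kb of exon (linear axis) of the 8 SOCS family genes in each of the 16 libraries, colored by subpopulation, with the mean and SD over all libraries. Socs4, at 89.7 ± 25.9, stands above the others, and Socs5 and Cish lie near 0 in many libraries.

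Of the 8 members, 7 passed the filter of a mean of at least 10 normalized counts and entered the test, and Cish did not pass. In the moderated F test of limma over the 4 groups, 0 of the 7 had an adjusted p under 0.05, against 0.408% of all 12505 tested genes. At an unadjusted p under 0.05 the count was 2, Socs2 and Socs5, against 10.2% of all genes. The 7 contrasts are given below in a fixed order. This is cMyc+prePB against cMyc+early, against cMyc+lateCD23int and against cMyc+lateCD23lo, then cMyc+early against cMyc+lateCD23int and against cMyc+lateCD23lo, then cMyc+lateCD23int against cMyc+lateCD23lo, and last cMyc+prePB against the mean of the other 3. In limma 0 members were called in each of them, while of all tested genes 0.192%, 0.144%, 0.264%, 0.008%, 0.28%, 0.008% and 0.312% were called. At an unadjusted p under 0.05 they held 1, 2, 0, 0, 1, 1 and 2 members, while of all genes 8.58%, 8.77%, 12.7%, 3.71%, 10.3%, 6.28% and 11.1% passed.

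The count tests were run on the recovered reads. The quasi-likelihood test of edgeR called 0 members in the F test (0.232% of all genes) and 0 in each contrast (0.064%, 0.088%, 0.248%, 0.008%, 0.184%, 0.008% and 0.288% of all genes). At an unadjusted p under 0.05 edgeR held 1 member in the F test (8.89% of all genes) and 2, 2, 2, 0, 0, 0 and 3 in the contrasts, where 7.76%, 7.83%, 12.0%, 3.54%, 9.93%, 6.21% and 10.6% of all genes passed. DESeq2 called 0 members over the 4 groups (2.12% of all genes) and 1 in 1 contrast, Socs2 in cMyc+prePB against cMyc+lateCD23int. Of all genes it called 1.05%, 1.04%, 2.18%, 0.16%, 1.38%, 0.12% and 1.81% in the contrasts. At an unadjusted p under 0.05 DESeq2 held 1 member over the 4 groups (11.4% of all genes) and 2, 2, 3, 0, 0, 1 and 3 in the contrasts (9.0%, 9.22%, 14.1%, 4.32%, 11.7%, 7.37% and 12.0%). The median log2 difference of the 7 members in cMyc+prePB against the mean of the other 3 was 0.13, beside 0.00 for all tested genes.

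Spread within a group limits these tests. The SD of log2(normalized count + 1) within groups was 0.47 for Socs4 and 0.69 for Socs6, near the 0.62 of the median tested gene. It was 1.06 for Socs7, 1.37 for Socs1, 1.76 for Socs2, 1.78 for Socs3 and 2.04 for Socs5. The plot of the members by library shows this scatter.

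**Figure D2:**
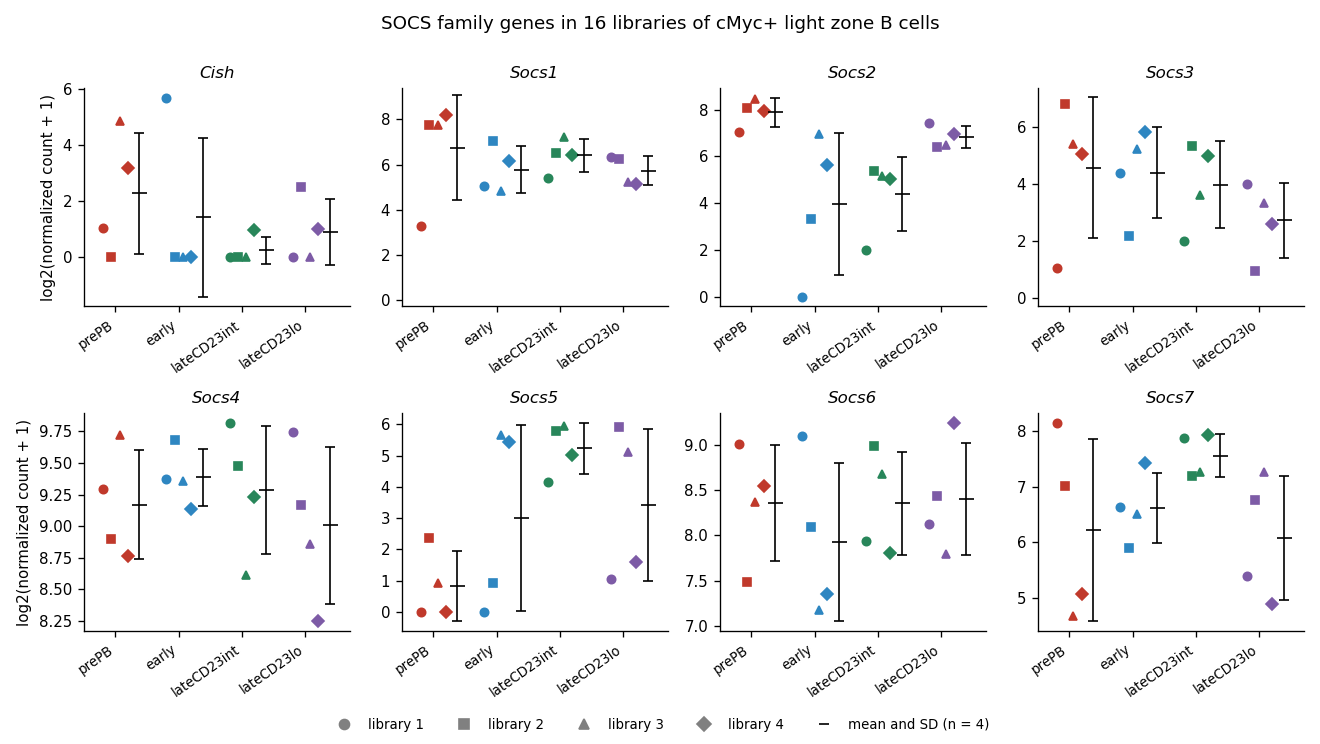
Level of each SOCS family gene as log2(normalized count + 1), with its own vertical range in each panel, for the 4 libraries of each subpopulation, whose shapes give the library number, with the mean and SD. Socs2 in cMyc+prePB lies above cMyc+early and cMyc+lateCD23int in every library, Socs5 lies near 0 in cMyc+prePB, and Socs1 in cMyc+prePB falls into 1 low and 3 high libraries.

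Socs2, whose product limits growth hormone signaling and is induced by STAT5, had its highest mean normalized count in cMyc+prePB and its lowest in cMyc+lateCD23int. On the log2(normalized count + 1) scale of the tests the lowest mean was that of cMyc+early. Its log2 difference from cMyc+lateCD23int was -0.42, with a 95% interval of -2.77 to 1.94. The gene (ENSMUSG00000020027) lies on chromosome 10, 95385362 to 95417180 on the minus strand of GRCm38. In cMyc+prePB it stood at 130.04, 269.6, 351 and 242 normalized counts in libraries 1 to 4. In cMyc+early it stood at 0, 8.85, 122 and 48.8, in cMyc+lateCD23int at 2.99, 40.7, 34.3 and 31.6, and in cMyc+lateCD23lo at 169, 83.3, 88.7 and 123. Every cMyc+prePB library was above every cMyc+early and every cMyc+lateCD23int library, as were 2.06% and 2.46% of all tested genes. The cMyc+prePB and cMyc+lateCD23lo ranges overlapped.

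The mean of Socs2 was 248 ± 91.2 in cMyc+prePB and 116 ± 39.6 in cMyc+lateCD23lo, against 45.0 ± 55.7 in cMyc+early and 27.4 ± 16.7 in cMyc+lateCD23int (SD, n = 4). On the log2(normalized count + 1) scale, cMyc+prePB exceeded cMyc+early by 3.90 ± 1.12 (SE, limma adjusted p = 0.243), cMyc+lateCD23int by 3.49 ± 1.12 (adjusted p = 0.338) and the mean of the other 3 by 2.82 ± 0.91 (adjusted p = 0.234). Against cMyc+lateCD23lo the difference was 1.06, with a 95% interval of -1.29 to 3.41. None of these passed in limma. In DESeq2 the difference from cMyc+lateCD23int was 3.18 with an adjusted p of 0.0459, where this tool called 1.04% of all genes.

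Socs2 also differed among the groups other than cMyc+prePB before adjustment. Every cMyc+lateCD23int library was below every cMyc+lateCD23lo library, as were 1.86% of all tested genes, and the log2 difference was -2.43 (limma adjusted p = 0.772). The log2 difference of cMyc+early from cMyc+lateCD23lo was -2.84, with a 95% interval of -5.19 to -0.49 (limma adjusted p = 0.385). Socs2 is among the genes that the study picked from these same libraries, so that its height in cMyc+prePB is not independent evidence. Its difference from the mean of the other 3 ranged from 2.38 to 3.15 when libraries were left out in turn (adjusted p 0.145 to 0.509).

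Socs1 encodes the inhibitor that blocks JAK kinases directly and is best known for curbing interferon signals. The gene (ENSMUSG00000038037) lies on chromosome 16, 10782240 to 10785536 on the minus strand. In cMyc+prePB it stood at 8.60 normalized counts in library 1 and at 216, 217 and 295 in libraries 2, 3 and 4. It stood at 32.5, 130.1, 26.9 and 71.3 in cMyc+early, at 41.8, 91.6, 151 and 84.6 in cMyc+lateCD23int and at 78.7, 74.9, 36.7 and 33.7 in cMyc+lateCD23lo. In cMyc+prePB 3 libraries were thus the highest of all 16, and library 1 was the lowest of all 16.

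With all libraries, Socs1 in cMyc+prePB differed from the mean of the other 3 by 0.78 ± 0.73 on the log2 scale (SE, limma adjusted p = 0.722). Without cMyc+prePB library 1 the difference was 1.95 (adjusted p = 0.108), and without cMyc+prePB library 4 it was 0.30 (adjusted p = 0.960). Without cMyc+prePB library 2 it was 0.45 and without library 3 it was 0.44 (adjusted p = 0.911 for both). Library 1 of cMyc+prePB was also the lowest of its group in Myc, at 2299.96 normalized counts against 4165 to 4417, and in Ccnd2, at 6412 against 11288 to 13639.5. Whether these values share a source was not tested.

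Socs3, whose product inhibits receptors that signal through gp130, was low and scattered. The gene (ENSMUSG00000053113) lies on chromosome 11, 117966079 to 117970047 on the minus strand. It stood at 1.07, 112, 41.5 and 32.5 normalized counts in cMyc+prePB, at 19.9, 3.54, 36.6 and 56.0 in cMyc+early, at 2.99, 39.7, 11.4 and 30.7 in cMyc+lateCD23int and at 15.1, 0.936, 9.18 and 5.10 in cMyc+lateCD23lo. All groups overlapped, and 3 of the 16 libraries were at or under 3 reads. The difference of cMyc+prePB from the mean of the other 3 was 0.88, with a 95% interval of -1.23 to 2.99 (limma adjusted p = 0.780). Leaving out cMyc+prePB library 1 gave 2.06 (adjusted p = 0.313), and leaving out cMyc+prePB library 2 gave 0.13 (adjusted p = 0.985). Its largest log2 difference was 1.86, between cMyc+prePB and cMyc+lateCD23lo, with an interval of -0.72 to 4.44.

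Cish, the founding member of the family and an inhibitor of STAT5 signaling, was detected in few libraries. The gene (ENSMUSG00000032578) lies on chromosome 9, 107296026 to 107302784 on the plus strand. It stood at 1.07, 0, 27.95 and 8.12 normalized counts in cMyc+prePB, at 50.3, 0, 0 and 0 in cMyc+early, at 0, 0, 0 and 0.929 in cMyc+lateCD23int and at 0, 4.68, 0 and 1.02 in cMyc+lateCD23lo. More than 3 reads were found in 4 of the 16 libraries, 2 of them of cMyc+prePB, and the highest value came from cMyc+early library 1. It failed the filter and has no test. An antisense gene, Gm17041, and a pseudogene, Gm17040, overlap Cish, with at most 2 and 0 reads in a library, and since the strand setting of the counting is not given in the sources used here, reads of overlapping genes could not be told apart. Cish is the member with 2 of the palindromes printed above.

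Socs4 was the steadiest member. Its product belongs with that of Socs5 to the members linked to epidermal growth factor receptor turnover. The gene (ENSMUSG00000048379) lies on chromosome 14, 47276931 to 47296102 on the plus strand. It stood at 628, 475, 842 and 434 normalized counts in cMyc+prePB, at 662, 819, 654 and 561 in cMyc+early, at 902, 711, 390.3 and 599 in cMyc+lateCD23int and at 857, 575, 464 and 303 in cMyc+lateCD23lo. All groups overlapped. The difference of cMyc+prePB from the mean of the other 3 was -0.06 on the log2 scale, with a 95% interval of -0.62 to 0.50, and no 95% interval of a contrast between groups reached beyond -0.90 or 1.07.

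Socs5 was the one member whose mean was lowest in cMyc+prePB by a wide margin. Its product has been linked to IL-4 signaling. The gene (ENSMUSG00000037104) lies on chromosome 17, 87107679 to 87137839 on the plus strand. It stood at 0, 4.13, 0.902 and 0 normalized counts in cMyc+prePB, that is at 0, 5, 1 and 0 reads. It stood at 0, 0.885, 50.05 and 42.4 in cMyc+early, at 16.9, 53.9, 61.2 and 31.6 in cMyc+lateCD23int and at 1.08, 58.9, 33.6 and 2.04 in cMyc+lateCD23lo. The cMyc+prePB and cMyc+lateCD23int groups did not overlap, as 2.75% of all tested genes did not in this direction, whereas cMyc+early and cMyc+lateCD23lo each held 2 libraries at or under 3 reads and 2 above 30 counts.

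For Socs5 the log2 difference of cMyc+prePB was -4.41 ± 1.40 from cMyc+lateCD23int (SE, limma adjusted p = 0.328) and -3.06 ± 1.14 from the mean of the other 3 (adjusted p = 0.318). The size of these differences depends on the pseudocount, since 3 of the 4 cMyc+prePB libraries were at or under 3 reads, and with a pseudocount of 5 the second was -1.94. Leaving out each library gave -3.58 to -2.77 (adjusted p 0.250 to 0.615). In all libraries with the number 1 Socs5 was at or below 16.9.

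Socs6 and Socs7, whose products are linked to receptor tyrosine kinase and insulin signaling, showed no ordered pattern. Socs6 (ENSMUSG00000056153, chromosome 18, 88665224 to 88927481, minus strand) ranged from 178 to 516 normalized counts in cMyc+prePB, from 143 to 548 in cMyc+early, from 223 to 506 in cMyc+lateCD23int and from 221 to 606 in cMyc+lateCD23lo. Its cMyc+prePB mean differed from that of the other 3 by 0.13 on the log2 scale, with an interval of -0.66 to 0.92.

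Socs7 (ENSMUSG00000038485) lies on chromosome 11, 97362551 to 97398542 on the plus strand. It stood at 283, 127, 24.3 and 32.5 normalized counts in cMyc+prePB, at 98.5, 58.4, 90.5 and 171 in cMyc+early, at 233, 145, 153 and 242 in cMyc+lateCD23int and at 41.0, 107, 153 and 28.6 in cMyc+lateCD23lo. Its means were highest in cMyc+lateCD23int, at 193 ± 51.4, and lowest in cMyc+lateCD23lo, at 82.3 ± 58.2 (SD, n = 4). The log2 difference between these was 1.49, with a 95% interval of -0.03 to 3.0 (limma adjusted p = 0.80). All groups overlapped.

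**Figure D3:**
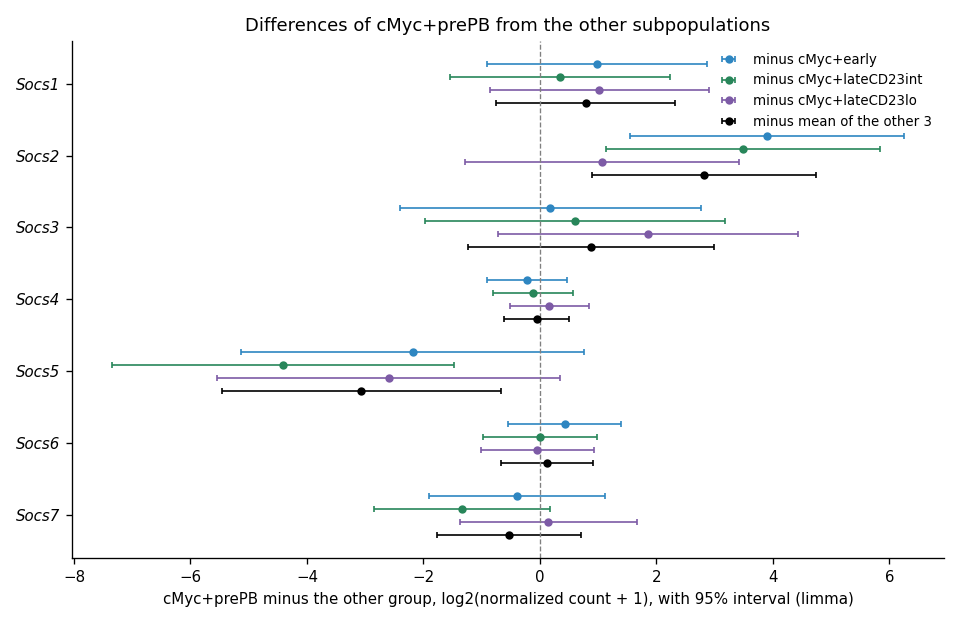
Difference of cMyc+prePB from each other subpopulation and from the mean of the other 3, as log2(normalized count + 1) with the 95% interval of limma, for the 7 tested members. The intervals of Socs2 against cMyc+early, cMyc+lateCD23int and the mean of the other 3 lie above 0, those of Socs5 against cMyc+lateCD23int and the mean of the other 3 lie below 0, and Socs4 and Socs6 have the narrowest ones; none passed after adjustment over all genes.

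The 8 genes listed as ligase partners, not all of which bind the SOCS box itself, were read over all 16 libraries. They averaged from 92.4 (Arih2) and 125 (Ube2f) to 5063 (Elob) normalized counts per kb of exon, beside 89.7 for Socs4. Elob and Eloc (1560.1) encode elongins B and C, Rbx1 (1905) a RING subunit of cullin ligases and Cul5 (372) the Cullin-5 scaffold. All 8 ligase partners listed were tested and 0 were called in any comparison. Cul5 was at 2434, 2438, 2287 and 1939 normalized counts in cMyc+prePB and between 2160.2 and 4577 in the other groups. The log2 difference of cMyc+prePB from their mean was -0.50 ± 0.17 (SE, limma adjusted p = 0.257).

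All of the 11 listed JAKs and STATs were tested. In cMyc+prePB against the mean of the other 3, where 0.312% of all tested genes were called, 1 was called. It was Stat5a, which encodes a transducer of IL-2 and IL-5 family signals. Stat5a stood at 1461, 971, 1313 and 1489 normalized counts in cMyc+prePB. It stood at 867, 635, 717 and 904 in cMyc+early, at 472, 467, 677 and 492 in cMyc+lateCD23int and at 754, 457, 369 and 659 in cMyc+lateCD23lo. Every cMyc+prePB library was above every other library, as were 0.328% of all tested genes. The log2 difference from the mean of the other 3 was 1.10 ± 0.21 (SE, limma adjusted p = 0.0202). The call was lost without cMyc+prePB library 1 (adjusted p = 0.0520), library 3 (0.0693) or library 4 (0.12) and without all 4 libraries of number 1 (0.0560). Stat5a was also called in the F test (adjusted p = 0.0447) and in cMyc+prePB against cMyc+lateCD23int (0.0433) and cMyc+lateCD23lo (0.0367), and 17, 18 and 10 of the 28, 29 and 29 alternatives lost these calls. No other JAK or STAT was called in any comparison. Of the most abundant ones, Stat3, which transduces IL-6 and IL-21 signals, differed by 0.66 in cMyc+prePB (adjusted p = 0.263) and the kinase gene Jak1 by 0.23 (adjusted p = 0.606) on the log2 scale.

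Other inhibitors of the pathway were 13 phosphatase, PIAS, adaptor and ubiquitin ligase genes, all tested, of which 0 were called in any comparison. The lowest p of the F test was that of Pias1, a SUMO ligase that restrains STATs, at -0.59 ± 0.16 in cMyc+prePB against the mean of the other 3 (SE, limma adjusted p = 0.128). Ptprc (CD45) differed by -0.52 and Ptpn1 by 0.63 on the log2 scale (adjusted p = 0.182 and 0.257). Ptpn6 (SHP-1) and Ptpn2, both phosphatases of the pathway, differed by -0.11 and 0.30 (adjusted p = 0.855 and 0.489).

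Of 37 cytokine receptor genes, 26 were tested. In cMyc+prePB against the mean of the other 3, where 0.312% of all tested genes were called, 0 rose and 2 fell. Both, Il5ra and Lifr, were among the genes with the lowest p of their list. Il5ra, the IL-5 receptor chain, stood at 169.8, 8.27, 29.8 and 6.31 normalized counts in cMyc+prePB, at 306 to 982 in cMyc+early, at 272 to 692 in cMyc+lateCD23int and at 88.7 to 406 in cMyc+lateCD23lo. The cMyc+prePB and cMyc+lateCD23lo ranges overlapped through cMyc+prePB library 1. The log2 difference was -3.70 ± 0.63 (SE, limma adjusted p = 0.00829), and the call was lost without cMyc+prePB library 2 (adjusted p = 0.0543) or library 4 (0.0594) and in edgeR (0.152). Il5ra was also called in the F test (adjusted p = 0.0282) and in cMyc+prePB against cMyc+early (0.0269) and cMyc+lateCD23int (0.0419), calls that 14 of 28, 11 of 29 and 16 of 29 alternatives lost.

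Lifr, the receptor of leukemia inhibitory factor, stood at 1.07, 4.96, 4.51 and 3.61 normalized counts in cMyc+prePB, near the floor. It stood at 26.2 to 219 in cMyc+early, at 71.2 to 461 in cMyc+lateCD23int and at 6.55 to 18.4 in cMyc+lateCD23lo. Every cMyc+prePB library was below every other library, as were 0.264% of all tested genes. The log2 difference from the mean of the other 3 was -3.62 ± 0.67 (SE, limma adjusted p = 0.0181), and the call was lost without cMyc+prePB library 4 (adjusted p = 0.0598), without the filter (0.0581) and with a mean of at least 50 (0.0543). Lifr was also called in the F test (adjusted p = 0.0126) and in cMyc+prePB against cMyc+early (0.0269) and cMyc+lateCD23int (0.0144), calls that 0 of 28, 10 of 29 and 4 of 29 alternatives lost. Leaving out any 1 of the 4 cMyc+prePB libraries, or library 2, 3 or 4 of cMyc+early, lost the call against cMyc+early, and leaving out cMyc+lateCD23int library 1 (adjusted p = 0.0873) or the libraries of number 1 (0.0553) lost that against cMyc+lateCD23int. No receptor gene was called in the remaining comparisons.

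The receptor genes with the highest levels per kb were not called. Il2rg, the common gamma chain shared by the receptors of IL-2, IL-4 and IL-21, stood at 10909 to 25906 normalized counts over all libraries and differed by -0.27 in cMyc+prePB (limma adjusted p = 0.588). Il21r, the IL-21 receptor, differed by 0.87 (adjusted p = 0.279) and Ifngr1, of the interferon gamma receptor, by -0.48 (adjusted p = 0.248). Csf2rb, the beta chain shared by the receptors of IL-3, IL-5 and GM-CSF, was highest in cMyc+lateCD23lo, where it stood at 386, 471, 523 and 722 normalized counts. It stood at 3.14, 191, 51.0 and 50.6 in cMyc+early, and the log2 difference of cMyc+early from cMyc+lateCD23lo was -3.75 ± 0.79 (SE, adjusted p = 0.0525). The sum of the 8 myeloid markers was 753 to 1437 in cMyc+lateCD23lo and 203 to 841 in the other groups, and its part in the level of Csf2rb was not tested. Il2ra, the high-affinity IL-2 receptor chain, was named after its values were seen. It stood at 507, 413, 368 and 762 in cMyc+prePB and at 29.7 to 235 elsewhere, with a log2 difference of 2.04 ± 0.47 (adjusted p = 0.0723).

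Of 14 cytokine genes, 3 passed the filter, and Il6 and Ifng were at 0 in all 16 libraries. Il10, whose product signals through STAT3, stood at 2.10, 0.885, 1.92 and 0 normalized counts in cMyc+early, all at or under 3 reads, at 39.7 to 112 in cMyc+prePB, at 44.6 to 127 in cMyc+lateCD23int and at 84.6 to 199 in cMyc+lateCD23lo. The F test called it (limma adjusted p = 0.000722), and cMyc+early differed from cMyc+lateCD23lo by -6.12 on the log2 scale (adjusted p = 0.000518). Il10 was also called in cMyc+early against cMyc+prePB (0.00429) and against cMyc+lateCD23int (0.0120), and 9 of 29 alternatives lost the latter call. The summed counts of other lists were also lowest in cMyc+early. The sum of the 10 T cell markers was 2163 to 3857 there and 4125 to 6987 in the other groups, or 6.29 to 51.5 against 23.4 to 246 without Lck. The sum of 6 plasma cell markers was 23488 to 30149 in cMyc+early, 31588 to 59105 in cMyc+lateCD23int, 37257 to 111293 in cMyc+prePB and 56149 to 90119 in cMyc+lateCD23lo. Jchain, with a mean of 46424 over all libraries, made up most of this sum, and Xbp1, the next, had a mean of 4094. Of the 6, 5 were tested. Their median log2 difference was -0.05 in cMyc+early against cMyc+lateCD23int and -0.23 against cMyc+lateCD23lo, beside -0.03 and -0.01 for all tested genes. In cMyc+prePB against cMyc+early it was 0.46, beside 0.01. The part of these lists in the level of Il10 was not tested. Il27 stood at 0, 136, 143 and 191 in cMyc+prePB and at or below 26.2 in all other libraries, and Il15 differed by 2.20 in cMyc+prePB; neither was called (adjusted p = 0.357 and 0.477). None of these is a measure of the cytokine that the cells received.

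Among genes known to be induced by STATs in lymphocytes, 14 were listed and all were tested. In cMyc+prePB against the mean of the other 3, where 0.312% of all tested genes were called, 2 rose and 0 fell. They were Batf, a transcription factor of B and T cell activation, and Ccnd2, a D-type cyclin. Batf stood at 4969, 5517, 6524 and 6937 normalized counts in cMyc+prePB and at 1667 to 4376 elsewhere, and its log2 difference was 1.26 ± 0.15 (SE, limma adjusted p = 0.000562). Ccnd2 stood at 6412, 13639.5, 12710.1 and 11288 in cMyc+prePB and at 1999 to 6965 elsewhere, and its log2 difference was 1.5 ± 0.19 (adjusted p = 0.000562). Neither of these 2 calls against the mean of the other 3 was lost under any of 28 alternatives. Both were also called against cMyc+lateCD23int and against cMyc+lateCD23lo, and neither against cMyc+early. In cMyc+early against cMyc+lateCD23lo, Ccnd2 (log2 difference 1.34, adjusted p = 0.0130) and Fcer2a were called. Fcer2a encodes CD23, on which both of these groups were sorted, so that its call follows the gate and is not independent evidence on STATs. The call of Ccnd2 there was lost without cMyc+early library 4 (adjusted p = 0.0543) or cMyc+lateCD23lo library 3 (0.0517) or 4 (0.0561) and with an untrended prior (0.0744). Batf, Ccnd2 and Myc, all on this list, were named by the study as raised in cMyc+prePB from these libraries, so that their direction is not independent. Pim1, a kinase gene that STAT5 induces, differed by 0.15 (adjusted p = 0.844). The median log2 difference of the 14 was 0.47, beside 0.00 for all tested genes. Since the 14 include Batf, Ccnd2 and Myc, and were listed with earlier results known, this median is not independent evidence either.

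**Figure D4:**
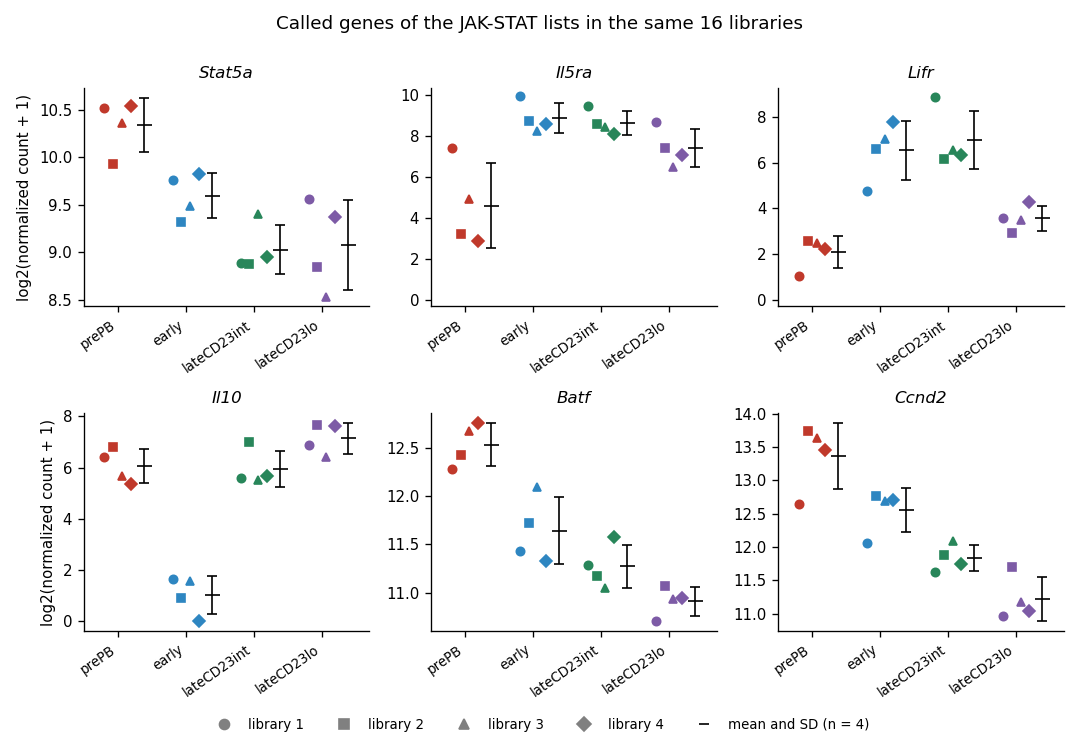
Level as log2(normalized count + 1), with its own vertical range in each panel, of the 6 genes of the receptor, JAK-STAT, ligand and target lists that were called in at least 1 comparison, other than the sort marker Fcer2a, with the mean and SD of 4 libraries. Stat5a, Batf and Ccnd2 have their highest mean in cMyc+prePB, Il5ra and Lifr their lowest there, and Il10 its lowest in cMyc+early.

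Across the 16 libraries, the genes whose log2 values followed Socs2 most closely were Gstt4 (Pearson r = 0.897), Akap1 (0.843) and Cd80 (0.835), of which Cd80 encodes a costimulatory ligand. For Socs1 they were Foxp4 (0.882), Tspyl2 (0.874) and Piezo1 (0.865), and for Socs3 Vps25 (0.814), Uspl1 (0.793) and Fdx1 (0.780). For Socs5 they were Tle4 (0.848), Mtor (0.828) and Gm8116 (0.818), and for Socs4 Lppos (0.810), Dock8 (0.80) and Gm43857 (0.799). For Socs6 they were 2900060B14Rik (0.780), Usp40 (0.759) and Zbtb46 (0.759), and for Socs7 Cep250 (0.796), Pglyrp2 (0.792) and 1110032A03Rik (0.779). These are the highest correlations among all tested genes for each member, over libraries that share their groups and numbers, and no member was among the nearest genes of another.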

How the data were processed

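RNA of sorted cells was amplified with a low-input kit and sequenced in 16 libraries. The deposited values are a signal: for each library, the gene counts after division by its size factor. The submitters' processing notes name Trimmomatic 0.36, STAR 2.5.2a, RSEM 1.2.31, DESeq2 1.20.0 and R 3.5.1 with GRCm38, and the strand setting is not given in the sources used here. Columns were matched to libraries by the names in the labels, and all were used. Division by the step of each library returned whole reads in 100% of values (tolerance 1e-06 reads).

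The 12505 genes averaging at least 10 were fitted on the log2(normalized count + 1) scale with limma 3.58.1 (R 4.3.3), in 1 model of all libraries whose prior followed the mean, and p-values were adjusted by Benjamini-Hochberg over all tested genes (threshold 0.05). On this scale the added 1 narrows differences between low values, while single libraries near 0 can widen differences of group means. For Il5ra in cMyc+prePB against cMyc+early the log2 difference was -4.27 in limma and -3.31 in edgeR. The quasi-likelihood test of edgeR 4.0.16 and DESeq2 1.42.0 were run on the recovered reads. The scripts were tested on simulated data. Lengths and coordinates are from GENCODE, promoters from RefSeq.

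The members and lists were chosen with earlier results of these data known. Genes named are the members, the sort markers, in each list the called genes, the 3 with the lowest p of the F test and the 3 with the highest level per kb, and for each member the 3 most correlated genes. Alternatives were pseudocounts of 0.5 and 5, no filter or one at a mean of 50, quantile normalization or equal totals, an untrended prior, the replicate block, fits of the compared groups alone and leaving out each library. Single-cell and flow cytometry data were not used here. Values of 2 genes of the lists are not reported here.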

Additional observations from a re-analysis of the deposited data

Results flagged for a closer look

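In 4 of 32 sets of 4 libraries, 1 library lay far from the other 3 by Dixon's criterion, taken on the log2(normalized count + 1) scale. Chance meets this criterion in about 1 of 20 sets of normally distributed values. The values below are normalized counts, on which the criterion was not taken. For the 2 sets of Cish this rate does not hold, since with 3 values at 0 any reading in the remaining library meets the criterion. Socs1 stood at 8.60 normalized counts in cMyc+prePB library 1 and at 216 to 295 in the other 3. Socs2 stood at 2.99 in cMyc+lateCD23int library 1 and at 31.6 to 40.7 in the other 3. Cish stood at 50.3 in cMyc+early library 1 and at 0 in the other 3, and at 0.929, which is 1 read, in cMyc+lateCD23int library 4 and at 0 in the other 3.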

How the results depend on the processing

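No member was called by limma under any alternative. DESeq2 called 1 member in cMyc+prePB against cMyc+lateCD23int, Socs2 (log2 difference 3.18, adjusted p = 0.0459). Leaving out each library in turn gave 0 calls in every comparison. Of 1400 directional values of the members under the alternatives, 59 changed sign, all of them not called under either setting. Socs2 in cMyc+prePB against the mean of the other 3 ranged in adjusted p from 0.0878 (DESeq2) to 0.509, and Socs5 from 0.0593 (DESeq2) to 0.615. Samples with the same replicate number deviated together unevenly, with correlations of -0.129 to 0.174 over the tested genes (mean 0.0509). Of these, 5 of 24 were over 0.1, beside 4 of 72 between different numbers (mean -0.0166, range -0.192 to 0.198). The main fit did not pair the samples because the labels do not say what a number shares, and these correlations do not settle it. Among genes with a mean of at least 1000, 17 of 24 were over 0.1 (mean 0.259, range -0.592 to 0.701). Between different numbers 22 of 72 were (mean -0.0813, range -0.701 to 0.739). Across the 4 groups Xist stood at 1649 to 2234 normalized counts in number 1 and 114 to 520.3 in number 2, and Ddx3y at 534 to 1319 and 3079 to 4509, a hint from the data, not the design, since the labels do not say whether libraries of a number share animals. With the replicate block 0 members were called in all comparisons (Socs2 in the F test, adjusted p = 0.0891). Leaving out the 4 libraries of number 1 together, an alternative chosen after seeing the data, also gave 0 calls, with Socs1 in cMyc+prePB at 1.82 above the mean of the other 3 (adjusted p = 0.138). Members at a few reads in several libraries are limited by counting error.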
